A study of Homo sapiens with 12 samples.

Results

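The 9 genes described here encode the B cell receptor, its surface partners and the first enzymes and adaptor of its signalling. They are IGHM, IGKC, CD79A, CD79B, MS4A1, CD22, BLNK, SYK and BTK, taken by name from a deposited table that counts reads in 55782 gene symbols. All 9 were counted in every library and passed the filter on low counts, which left 15535 genes to test. RNA came from a co-culture of Jurkat cells, a human T cell leukaemia line labelled as carrying LAG3 and PD1, and Raji cells, a human Burkitt lymphoma B cell line labelled as carrying PDL1. Raji cells were loaded with SED, a staphylococcal superantigen, at 100 ng/ml, and the lines were kept together for 24 h. The 4 arms were anti-LAG3 (MK4280) with isotype antibody, anti-PD1 (MK3475) with isotype antibody, anti-PD1 together with anti-LAG3 (the combination), and isotype antibody alone. Doses were 0.01, 0.1 and 1 µg/ml of each antibody in every arm, and every culture in all 4 arms held both lines and the superantigen. Wells of a condition were pooled into 1 pellet and gave 1 library, so there were 12 libraries and the 3 doses of an arm served as its 3 libraries.

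The B cell receptor is a membrane immunoglobulin held in a complex with the CD79A and CD79B chains, whose cytoplasmic tails carry the activation motifs of the receptor. Antigen binding leads SRC family kinases to phosphorylate these motifs, SYK docks on them, and the adaptor BLNK brings BTK to phospholipase C gamma 2. CD22 is a sialic acid binding receptor that recruits the phosphatase SHP-1 and dampens the signal, and MS4A1 encodes CD20, a surface protein of B cells. Burkitt lymphoma lines such as Raji descend from B cells that carry a receptor of this kind, while Jurkat cells signal through the T cell receptor.

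Depth was 23593973 to 36581754 counts per library, with the highest in the isotype library at 1 µg/ml. Nothing in the labels calls any library a repeat of another, so p-values here reflect how far these libraries spread, which can be technical, and not how far repeated cultures would. RNA of both lines was read together, so fewer Raji cells and less RNA per Raji cell cannot be told apart, and no value can be given to 1 line. All 27 listed Raji B markers that are none of the 9 genes were tested, 26 of them averaging at least 10 CPM. Of 26 Jurkat T markers 25 were tested, 22 of them at that level. Monocyte markers (LYZ, CD14, CSF1R, S100A8, S100A9, FCN1) had 0 to 7 counts per library. Of the NK markers, NCAM1 had 29 to 59 counts per library, and KLRD1, KLRF1, NCR1 and FCGR3A had 0 to 7.

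Levels are first given as CPM, counts scaled to a common library size with TMM factors. IGHM, the heavy chain constant gene of IgM, had 1901, 1842 and 1793 CPM at 0.01, 0.1 and 1 µg/ml of anti-LAG3, and 1980, 1988 and 1901 CPM with anti-PD1. The combination libraries had 1881, 1897 and 1976 CPM of IGHM, and the isotype libraries had 1754, 1750 and 2069 CPM. IGHM lies at chr14:105851705-105856218 on the minus strand (GRCh38, GENCODE 29) and is annotated as an immunoglobulin constant gene. The isotype series held both the lowest and the highest IGHM library. IGKC, the kappa light chain constant gene at chr2:88857161-88857683 (minus strand), had 1056, 1088 and 1079 CPM with anti-LAG3 and 1118, 1096 and 1089 CPM with anti-PD1. It had 1137, 1089 and 1149 CPM with the combination and 1013, 1024 and 1293 CPM with isotype. Outside the isotype library at 1 µg/ml, all 11 IGKC values lay between 1013 and 1149 CPM.

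The signalling chains were less abundant. CD79A (chr19:41877120-41881372, plus strand) had 468, 457 and 472 CPM with anti-LAG3, 480, 469 and 460 CPM with anti-PD1, 447, 446 and 465 CPM with the combination, and 432, 423 and 477 CPM with isotype. The CD79A ranges of the arms overlapped. CD79B (chr17:63928740-63932354, minus strand) had 366, 384 and 384 CPM with anti-LAG3, 401, 372 and 362 CPM with anti-PD1, 324, 354 and 377 CPM with the combination, and 336, 337 and 338 CPM with isotype. CD79B was nearly level across the isotype libraries, at 337 ± 0.681 CPM (SD, n = 3), and every anti-LAG3 and anti-PD1 library lay above them. That SD was 0.202% of the mean, less than the counting error of 0.909% to 1.05% of the single isotype libraries. It therefore understates how far such libraries would spread. GENCODE 29 also places AC127029.3, a gene on the same strand, across part of CD79B. On the same strand as well, AC244205.1 spans all of IGKC, and U62631.1 and MIR5196 lie within CD22. How the authors' counting treated such overlaps is not given in the sources used here.

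Of the surface proteins, MS4A1 (chr11:60455752-60470760, plus strand) had 431, 443 and 440 CPM with anti-LAG3, 472, 427 and 465 CPM with anti-PD1, 482, 483 and 507 CPM with the combination, and 456, 463 and 524 CPM with isotype. The 3 anti-LAG3 libraries lay below all isotype and combination libraries. CD22 (chr19:35319261-35347355, plus strand) had 260, 243 and 245 CPM with anti-LAG3, 266, 271 and 257 CPM with anti-PD1, 265, 278 and 278 CPM with the combination, and 269, 266 and 271 CPM with isotype. Anti-LAG3 again held the lowest pair of libraries, while the anti-PD1, combination and isotype ranges overlapped.

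BLNK, the adaptor (chr10:96191702-96271587, minus strand), was the least abundant, with 28.7, 26.0 and 27.3 CPM in anti-LAG3, 28.3, 27.9 and 28.2 CPM in anti-PD1, 31.7, 32.1 and 30.3 CPM in the combination, and 30.8, 28.5 and 31.7 CPM in isotype. It overlaps ZNF518A on the other strand, which had 813 to 1432 counts per library. The strand setting of the counting is not given in the sources used here, so reads of both genes may not be told apart where they overlap. SYK, the kinase that docks on the receptor chains (chr9:90801787-90898549, plus strand), had 217, 216 and 205 CPM with anti-LAG3, 224, 217 and 214 CPM with anti-PD1, 215, 210 and 217 CPM with the combination, and 219, 208 and 215 CPM with isotype. BTK, the kinase that activates phospholipase C gamma 2 (chrX:101349447-101390796, minus strand), had 96.3, 102 and 107 CPM with anti-LAG3, 105, 102 and 103 CPM with anti-PD1, 110, 114 and 119 CPM with the combination, and 110, 109 and 115 CPM with isotype. Every BTK value in anti-LAG3 and anti-PD1 lay below every value in the combination and isotype arms, whereas SYK values overlapped in all arms.

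**Figure D1:**
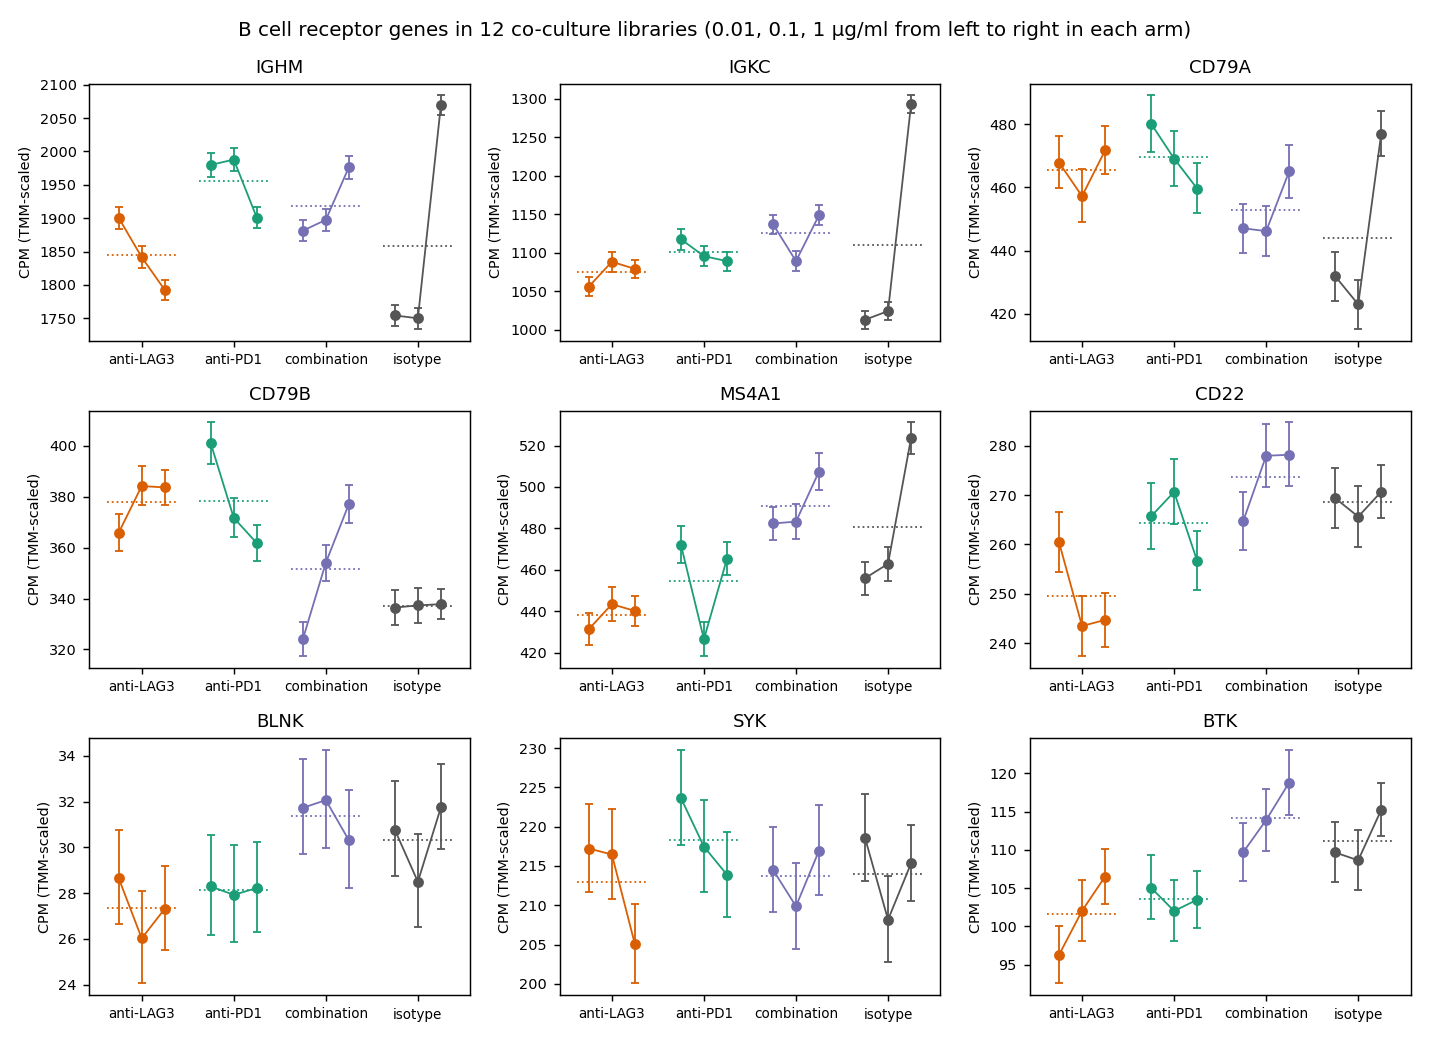
CPM (vertical axis, linear, not starting at 0) of each of the 9 genes in the 12 libraries, grouped by arm with 0.01, 0.1 and 1 µg/ml from left to right. Bars are 95% Poisson intervals for counting error, and dotted lines are arm means; the isotype library at 1 µg/ml stands above the other isotype libraries for IGHM, IGKC, CD79A and MS4A1, and CD79B is nearly level across the isotype arm.

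Counting error was small beside these levels. The lowest BLNK library, anti-LAG3 at 0.1 µg/ml, had 652 counts and a 95% Poisson interval of 24.1 to 28.1 CPM around 26.0 CPM, and the other BLNK libraries had up to 1137 counts. For IGHM the same library had an interval of 1825 to 1858 CPM around 1842 CPM. These intervals describe counting error alone. Reads copied in PCR and not tagged per molecule are not independent, so the intervals may be too narrow even for that. Across the 12 libraries the highest value divided by the lowest was 1.09 for SYK, the smallest of the 9, and 1.28 for IGKC, the largest. The coefficient of variation over the 12 libraries ran between 2.34% for SYK and 6.71% for BLNK. The counting error of single BLNK libraries was 2.97% to 3.92%. Over the 8778 genes averaging at least 10 CPM the median coefficient was 5.87%, and 4 of the 9 genes lay below it.

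Per length of transcript, as CPM per kilobase of gene length (RPKM), the order of the 9 genes was IGKC, IGHM, CD79A, CD79B, MS4A1, CD22, SYK, BTK and BLNK. Median RPKM over the 12 libraries was 2083 for IGKC, 1017 for IGHM, 308 for CD79A and 175 for CD79B. It was 95.3 for MS4A1, 42.5 for CD22, 41.4 for SYK, 23.5 for BTK and 7.82 for BLNK. Neighbours in this order did not overlap in any pair of libraries except CD22 and SYK, whose ranges of 39.0 to 44.5 and 39.4 to 42.9 RPKM overlapped. Ratios of genes were also taken within each library. MS4A1 over CD79B RPKM, which are not partner chains, was 0.490 to 0.662. Kappa light chain over IgM heavy chain RPKM was 1.97 to 2.23, and CD79B over CD79A RPKM was 0.512 to 0.607, with the lowest ratio of CD79B to CD79A in the isotype library at 1 µg/ml. BTK over SYK RPKM was 0.505, 0.537 and 0.591 at 0.01, 0.1 and 1 µg/ml of anti-LAG3. It was 0.535, 0.534 and 0.551 with anti-PD1, 0.582, 0.618 and 0.624 with the combination, and 0.571, 0.594 and 0.609 with isotype.

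A promoter window each of BTK and of SYK is shown because only these windows, among those found for the 9 genes, held the motif searched. Windows of 300 bases, 250 before and 50 after a transcription start, came from RefSeq (GRCh38.p14), where 5 of the 9 genes (CD79A, CD22, BLNK, SYK and BTK) matched with 8 windows. IGHM, IGKC, CD79B and MS4A1 are only named. GAGGAAGT, the core of the PU box bound by the blood cell factor PU.1, was the only motif searched, on both strands, so that ACTTCCTC marks it on the other strand. Of 35116 windows in the RefSeq table, 909 (2.59%) held it, and 2 of the 8 windows of these genes did. The BTK window at chrX:101390747-101391046 (minus strand) held 2 matches, which began 171 and 29 bases before the start. The SYK window at chr9:90801569-90801868 (plus strand) held 1 match, 82 bases before the start. Sequences run 5′ to 3′ along the gene's strand, and capitals mark the matches.
BTK: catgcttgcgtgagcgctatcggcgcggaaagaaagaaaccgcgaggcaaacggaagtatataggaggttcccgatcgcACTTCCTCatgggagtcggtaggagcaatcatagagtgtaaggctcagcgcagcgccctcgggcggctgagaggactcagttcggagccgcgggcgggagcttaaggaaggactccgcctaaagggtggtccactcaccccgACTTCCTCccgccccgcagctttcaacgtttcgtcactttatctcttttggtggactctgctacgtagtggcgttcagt
SYK: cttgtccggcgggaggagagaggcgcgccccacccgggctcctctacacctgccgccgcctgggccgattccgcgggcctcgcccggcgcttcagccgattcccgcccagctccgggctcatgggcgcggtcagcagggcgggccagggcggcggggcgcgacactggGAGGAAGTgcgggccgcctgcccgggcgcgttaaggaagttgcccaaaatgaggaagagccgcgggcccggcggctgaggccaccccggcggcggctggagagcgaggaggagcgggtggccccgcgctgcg
A match is a description of these letters and says nothing of binding in these cells.

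Anti-LAG3 was compared with isotype to ask which receptor genes differed in arm mean, with dose as a factor. CD79B was higher in anti-LAG3 libraries, at 378 ± 10.5 CPM against 337 ± 0.681 CPM in isotype libraries (SD, n = 3 each). That was 0.16 ± 0.05 on the log2 scale (SE; edgeR quasi-likelihood test with Benjamini-Hochberg adjustment, adjusted p = 0.0398). CD79B was the only 1 of the 9 called, where 10% of all genes tested were called and 4.88% were called higher. BTK, MS4A1, BLNK and CD22 had negative values that missed the threshold. BTK averaged 102 ± 5.14 CPM with anti-LAG3 and 111 ± 3.55 CPM with isotype (SD, n = 3 each), a log2 difference of -0.13 ± 0.04 (adjusted p = 0.0648). MS4A1 averaged 438 ± 6.22 CPM with anti-LAG3 and 481 ± 37.2 CPM with isotype, a difference of -0.13 ± 0.05 (adjusted p = 0.0722). The difference was -0.15 ± 0.06 for BLNK (adjusted p = 0.117) and -0.11 ± 0.04 for CD22 (adjusted p = 0.118). The other log2 differences were 0.07 for CD79A, -0.04 for IGKC and -0.01 for both IGHM and SYK. At an unadjusted p under 0.05 stood 5 of the 9, where 24.7% of all genes did. Libraries did not overlap for 4 of the 9, CD79B above and MS4A1, CD22 and BTK below, where this held for 28.9% of all genes. The median over the 9 was -0.04, and over all genes tested -0.00149. Without the isotype library at 1 µg/ml, 4 of the 9 values lay below 0 in place of 7. IGKC was then at 0.08, IGHM at 0.09 and SYK at 0.01, all with the opposite sign, CD79A was at 0.13 ± 0.04 (adjusted p = 0.0539; 0.0466 to 0.738 over the alternatives) and MS4A1 at -0.08 ± 0.05 (adjusted p = 0.311; 0.0463 to 0.946).

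Over all tested genes, the differences moved with GC content, the share of G and C bases in a gene's longest transcript. Across 4 equal groups of genes ordered from low to high GC content, the median log2 difference of anti-LAG3 against isotype was -0.06, -0.02, 0.04 and 0.10. CD79B, at 60.0% GC, lay in the highest group with CD79A (60.7%) and IGHM (61.1%), while MS4A1, at 37.9%, lay in the lowest. BLNK (45.9%) and BTK (47.2%) lay under the median of tested genes, 48.5%, and SYK (50.5%), IGKC (53.3%) and CD22 (55.2%) above it. CD79A, CD79B, MS4A1, BLNK and BTK had the sign of their group's median, whereas IGHM, SYK, IGKC and CD22 had the opposite sign. After a correction for GC content and length, CD79B differed by 0.01 ± 0.05 (adjusted p = 0.961; 0.00368 to 0.961 over its 20 alternatives). In that fit 3 of the 9 genes were called, all lower with anti-LAG3, where 4.62% of all genes were called. IGHM differed by -0.18 ± 0.04 (adjusted p = 0.021; 0.021 to 1 over the alternatives), CD22 by -0.14 ± 0.04 (adjusted p = 0.0317; 0.0317 to 0.992) and BTK by -0.14 ± 0.04 (adjusted p = 0.0456; 0.0456 to 0.913). CD79A had 0.07 without the correction and -0.10 ± 0.03 with it (adjusted p = 0.0886; 0.0466 to 0.738). BTK, BLNK, CD22 and MS4A1 kept negative values with the correction.

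**Figure D2:**
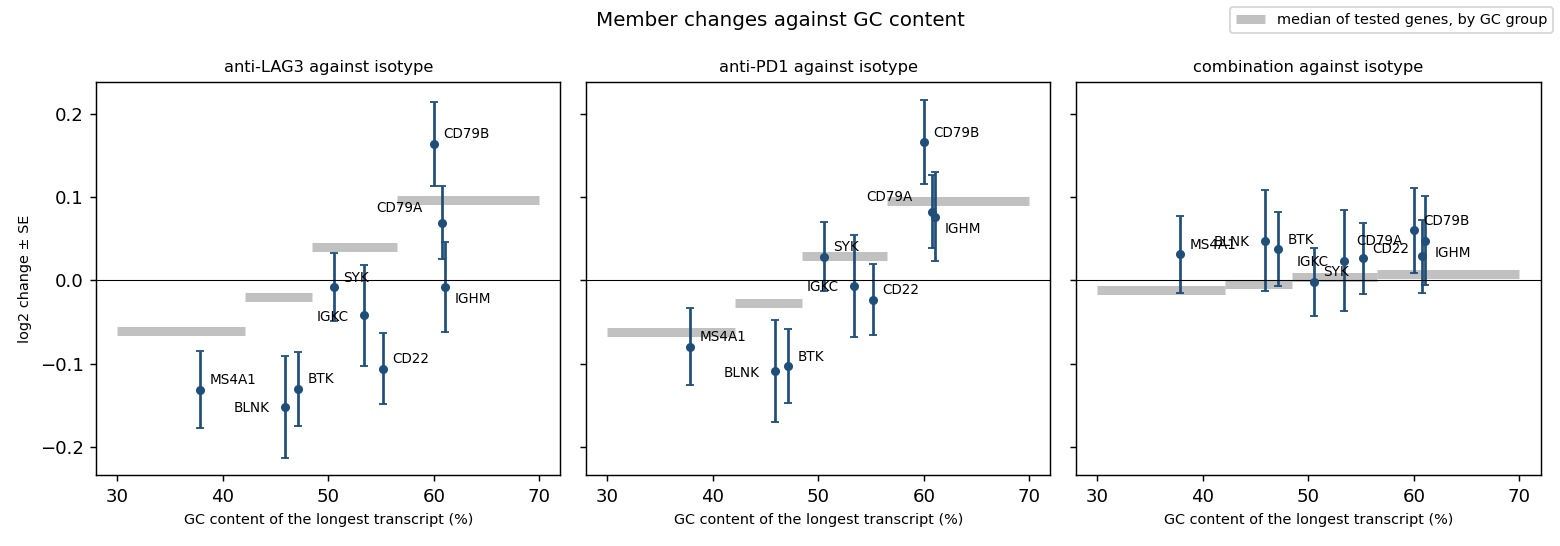
Log2 difference of each antibody arm from isotype (vertical axis, with SE bars) against the GC content of the gene's longest transcript (horizontal axis, percent), 1 point per gene. Grey bars are the medians of all tested genes in each of 4 GC groups, drawn between 30 and 70 percent; they climb with GC content in the anti-LAG3 and anti-PD1 panels, from -0.06 to 0.10 in both, and stay near 0 for the combination.

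The balance of markers of the 2 lines was also compared between anti-LAG3 and isotype. The mean log2 CPM of the Jurkat T markers minus that of the Raji B markers was -0.955 ± 0.0276 with anti-LAG3 and -1.16 ± 0.0234 with isotype (SD, n = 3 each). The difference was 0.207 (exact two-sided permutation p = 0.1, the smallest that 3 libraries against 3 allow; 0.3 after adjustment over 3 arms), and -0.0468 by the median over markers. Raji B markers summed to 6426 to 6562 CPM in anti-LAG3 libraries and to 6512 to 7376 CPM in isotype libraries. Of the 27 markers 6 were called lower and 0 higher with anti-LAG3, with a median of -0.05. Of all 15535 genes tested, 802 were called lower and 758 higher. By sign alone, 17 of the markers were negative and 10 positive. With this marker difference as a covariate, CD79B differed by 0.38 ± 0.11 (adjusted p = 0.206), and 0 of the 9 genes and 0 of all genes were called (edgeR). The covariate was -0.985 to -0.932 in anti-LAG3 libraries and -1.19 to -1.14 in isotype libraries, without overlap. It raised the standard error of CD79B from 0.05 to 0.11, so this fit cannot separate marker balance from arm. Scaled to the Raji B markers, which moved the median of all genes to 0.06, CD79B differed by 0.22 ± 0.05 (adjusted p = 0.00368) and CD79A by 0.13 ± 0.04 (adjusted p = 0.0466), where 12.5% of all genes were called. The part of the marker balance in the differences of the single genes was not tested.

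The CD79B call changed with single libraries. It held in 4 of the 12 fits that left out 1 library, and ended when any 1 of the 3 anti-LAG3 or of the 3 isotype libraries was left out, or the 0.1 µg/ml library of anti-PD1 or of the combination. Its value in these 12 fits was 0.15 to 0.18 (adjusted p 0.0126 to 0.174).

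Anti-PD1 against isotype gave 0 calls among the 9 genes by edgeR, where 3.82% of all genes were called. DESeq2 called 1 of the 9 and 4.08% of all genes. That gene was CD79B (DESeq2 adjusted p = 0.0434; 0.0208 to 0.758 over the alternatives), and 2 of the 9 had an unadjusted edgeR p under 0.05, where 18.4% of all genes did. CD79B averaged 378 ± 20.4 CPM with anti-PD1 and 337 ± 0.681 CPM with isotype (SD, n = 3 each), a log2 difference of 0.17 ± 0.05 (adjusted p = 0.0675). It was called when anti-PD1 at 1 µg/ml or the combination at 0.01 or 1 µg/ml was left out, and its value over the 12 such fits was 0.09 to 0.23 (adjusted p 0.0228 to 0.481). BTK averaged 104 ± 1.52 CPM with anti-PD1 and 111 ± 3.55 CPM with isotype, a difference of -0.10 ± 0.04 (adjusted p = 0.213). Libraries did not overlap for CD79B, above isotype, and for BLNK and BTK, below it, so for 3 of the 9 where this held for 22.2% of all genes. The remaining differences were 0.08 for IGHM and CD79A, 0.03 for SYK, -0.01 for IGKC, -0.02 for CD22, -0.08 for MS4A1 and -0.11 for BLNK. After the GC and length correction CD79B differed by 0.04 ± 0.05 (adjusted p = 0.758), and IGHM and CD79A turned negative, at -0.06 and -0.05. Without the isotype library at 1 µg/ml, IGHM differed by 0.17 ± 0.05 (adjusted p = 0.0205; 0.0205 to 0.881 over the alternatives) and CD79A by 0.14 ± 0.04 (adjusted p = 0.0493; 0.0493 to 0.724), and both were called. The marker difference was -1.13 ± 0.0741 with anti-PD1 and -1.16 ± 0.0234 with isotype (exact permutation p = 0.5, n = 3 each).

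The combination against isotype gave log2 differences between -0.00 for SYK and 0.06 for CD79B, with standard errors of 0.04 to 0.06. By edgeR 0 of the 9 were called and 0 had an unadjusted p under 0.05, where 0.00644% and 6.68% of all genes did, and DESeq2 called 0 (0.116% of all genes). All 9 overlapped between the combination and isotype, where the libraries of 8.48% of all genes did not. CD79B averaged 352 ± 26.7 CPM with the combination and 337 ± 0.681 CPM with isotype (SD, n = 3 each), 0.06 ± 0.05 on the log2 scale (adjusted p = 0.933). Without the isotype library at 1 µg/ml the 9 values ran from 0.02 for SYK to 0.14 for IGKC. IGKC then differed by 0.14 ± 0.04 (edgeR unadjusted p = 0.00305, adjusted p = 0.44; 0.44 to 1 over the alternatives) and IGHM by 0.14 ± 0.05 (unadjusted p = 0.00475, adjusted p = 0.471; 0.471 to 1), and neither was called. Arm comparisons with isotype share the same 3 isotype libraries.

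The combination was set against each single antibody to see how the 9 genes differed when the other antibody was also present. Against anti-LAG3, BTK and MS4A1 were called, both higher with the combination, so 2 of the 9 where 5.75% of all genes were called and 2.61% were called higher. BTK averaged 114 ± 4.57 CPM with the combination and 102 ± 5.14 CPM with anti-LAG3 (SD, n = 3 each), a log2 difference of 0.17 ± 0.04 (adjusted p = 0.0298). MS4A1 averaged 491 ± 14.2 CPM with the combination and 438 ± 6.22 CPM with anti-LAG3, 0.16 ± 0.05 on the log2 scale (adjusted p = 0.0397). BLNK differed by 0.20 ± 0.06 (adjusted p = 0.0548), CD22 by 0.13 ± 0.04 (adjusted p = 0.0661) and CD79B by -0.10 ± 0.05 (adjusted p = 0.233). Libraries did not overlap for IGKC, MS4A1, CD22, BLNK and BTK, all above in the combination, so for 5 of the 9 where this held for 25.2% of all genes and 12.6% lay above. The other differences were 0.06 for IGHM, 0.07 for IGKC, 0.01 for SYK and -0.04 for CD79A.

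After the GC and length correction BTK differed by 0.17 ± 0.04 (adjusted p = 0.0267; 0.0171 to 0.624 over the alternatives) and MS4A1 by 0.12 ± 0.04 (adjusted p = 0.135; 0.0134 to 0.701). IGHM, at 0.20 ± 0.04 (adjusted p = 0.0192; 0.0192 to 0.97), and CD22, at 0.16 ± 0.04 (adjusted p = 0.0262; 0.0248 to 0.825), were called beside BTK in that fit, where 2.71% of all genes were called. Scaled to the Raji B markers, the values of BTK and MS4A1 were 0.07 and 0.07 and were not called, while CD79A (-0.13, adjusted p = 0.0362; 0.0362 to 0.896 over the alternatives) and CD79B (-0.20, adjusted p = 0.00775; 0.00775 to 0.836) were called lower in the combination, where 14.7% of all genes were called. CD79A was 0.10 and CD79B 0.02 with the GC and length correction, so the sign of both turned. The Raji B markers had 5 of 27 called higher and 0 lower in the combination than in anti-LAG3, with a median of 0.09. In that uncorrected fit 2.61% of all genes were called higher. The BTK call held in 6 of 12 fits that left out 1 library. It ended when any 1 of the 3 anti-LAG3 libraries, the combination library of 0.1 or of 1 µg/ml, or the 0.1 µg/ml isotype library was left out, with values of 0.14 to 0.18 (adjusted p 0.0171 to 0.156). The MS4A1 call held in 5 of 12 and ended without the same libraries and also without anti-PD1 at 1 µg/ml, with values of 0.13 to 0.20 (adjusted p 0.0134 to 0.24). CD22 was called without anti-LAG3 at 0.01 µg/ml, without the combination at that dose or without isotype at 1 µg/ml (0.11 to 0.17 over the 12 fits, adjusted p 0.0248 to 0.3), and BLNK without isotype at 1 µg/ml (0.15 to 0.24, adjusted p 0.0385 to 0.304).

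Against anti-PD1, the combination gave 0 calls by edgeR among the 9 genes, where 0.354% of all genes were called, and 0 by DESeq2 (1.03% of all genes). At an unadjusted p under 0.05 stood 4 of the 9, where 14% of all genes did. BTK averaged 114 ± 4.57 CPM with the combination and 104 ± 1.52 CPM with anti-PD1 (SD, n = 3 each), a difference of 0.14 ± 0.04 (adjusted p = 0.14). BLNK differed by 0.16 ± 0.06 (adjusted p = 0.245), MS4A1 by 0.11 ± 0.05 (adjusted p = 0.277) and CD79B by -0.11 ± 0.05 (adjusted p = 0.348). After the GC and length correction BTK was at 0.13 and BLNK at 0.15, MS4A1 at 0.06 ± 0.04 (adjusted p = 0.689; 0.17 to 0.689 over the alternatives) and CD79B at -0.01 ± 0.05 (adjusted p = 0.962; 0.154 to 0.962). IGHM and CD79A turned positive, at 0.08 and 0.05 with the correction, against -0.03 and -0.05 without it. MS4A1, BLNK and BTK libraries of the combination lay above all anti-PD1 libraries, so for 3 of the 9 where libraries of 17.1% of all genes did not overlap and those of 8.01% lay above.

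**Figure D3:**
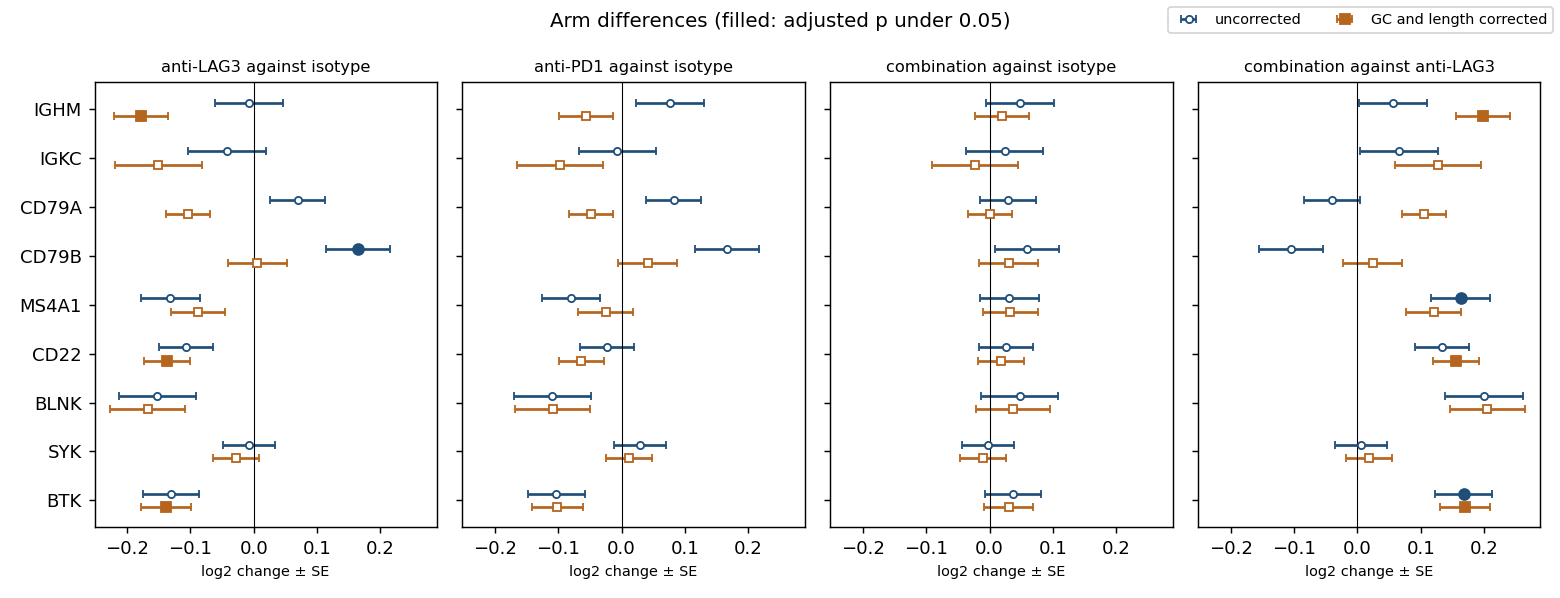
Log2 difference with SE bars (horizontal axis) for the 9 genes in 4 arm comparisons, from edgeR without correction (circles) and with the GC and length correction (squares); filled symbols have an adjusted p under 0.05. CD79B is at 0.16 without and at 0.01 with the correction for anti-LAG3 against isotype, while BTK is at 0.17 in both for the combination against anti-LAG3.

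Dose was followed as a log2 slope per 10-fold dose within each arm. In the isotype arm itself IGKC had a slope of 0.18 ± 0.04 (edgeR adjusted p = 0.0176), the only 1 of the 9 called, where 0.856% of all genes were called and 0.74% with a positive slope. The other slopes within isotype were 0.12 ± 0.03 for IGHM (adjusted p = 0.0876), 0.10 ± 0.03 for MS4A1 (adjusted p = 0.176) and 0.07 ± 0.03 for CD79A (adjusted p = 0.309), and between -0.01 and 0.04 for the remaining genes. IGHM was called when isotype at 0.1 µg/ml or anti-PD1 at 0.01 or 0.1 µg/ml was left out (adjusted p 0.0336 to 1 over the 12 fits). The positive slopes rested on 1 library. Without isotype at 1 µg/ml, IGKC had 0.02 ± 0.06, IGHM -0.00, MS4A1 0.02 and CD79A -0.03, and 0 of all genes were called in the isotype slope. That library also had the highest depth and the highest sum of Raji B markers, at 7376 CPM, and the part of either in the IGKC slope was not tested.

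Slopes of the antibody arms were read against the isotype slope, so each of them shares the isotype library at 1 µg/ml. For anti-LAG3, edgeR called 0 of the 9 (0.0708% of all genes), DESeq2 called 0 (0.0579%), and 2 had an unadjusted p under 0.05, where 7.99% of all genes did. IGHM had -0.16 ± 0.05 (adjusted p = 0.306) and IGKC -0.16 ± 0.05 (adjusted p = 0.39). For anti-PD1, edgeR called 0 of the 9 (0.264% of all genes), and 4 had an unadjusted p under 0.05, where 11.1% did. DESeq2 called 1 of the 9 (0.373% of all genes), IGKC at -0.20 (adjusted p = 0.0431; 0.00446 to 1 over the alternatives), which edgeR gave as -0.19 ± 0.05 (adjusted p = 0.0977). For the combination, edgeR called 0 of the 9 (4.63% of all genes), DESeq2 called 0 (1.87%), and 2 had an unadjusted p under 0.05, where 17.8% did. IGKC had -0.17 ± 0.05 (adjusted p = 0.0532) and CD79B 0.11 ± 0.04 (adjusted p = 0.164). IGKC was called lower for anti-PD1 when isotype at 0.01 or 0.1 µg/ml was left out (-0.35 to -0.03 over the 12 fits, adjusted p 0.0185 to 1). For the combination it was called without either of these isotype libraries or without anti-PD1 at 0.01 or 0.1 µg/ml (-0.33 to -0.01, adjusted p 0.00947 to 0.999). Without isotype at 1 µg/ml the IGKC values were -0.00, -0.03 and -0.01 for anti-LAG3, anti-PD1 and the combination, and CD79B kept 0.11 ± 0.07 for the combination (adjusted p = 0.924; 0.0111 to 0.924 over the alternatives). CD79B was lowest at 0.01 µg/ml and highest at 1 µg/ml within the combination, and lowest at 1 µg/ml within anti-PD1. After the GC and length correction the combination slopes of CD79B (0.16 ± 0.04, adjusted p = 0.0111) and IGKC (-0.21, adjusted p = 0.019; 0.00485 to 0.999 over the alternatives) were called, where 6.72% of all genes were called.

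**Figure D4:**
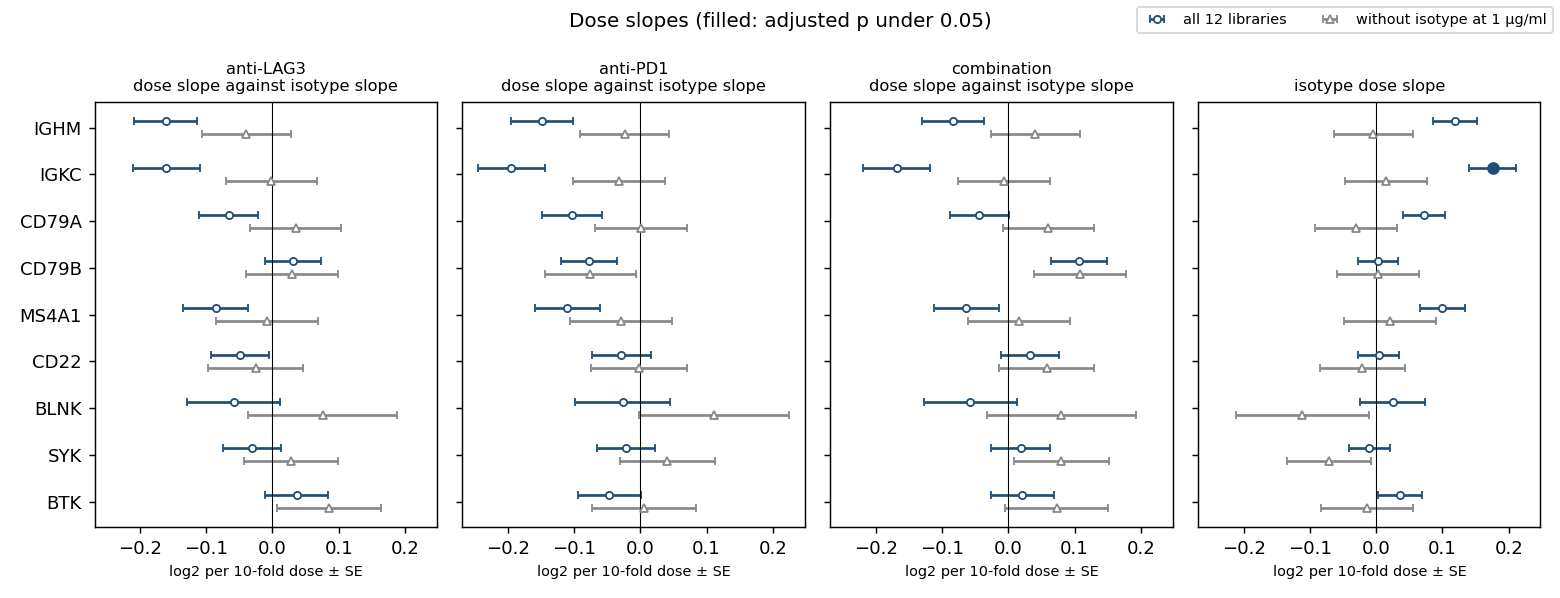
Log2 slope per 10-fold dose with SE bars (horizontal axis) for the 9 genes, as the antibody arm's slope minus the isotype slope in 3 panels and as the isotype slope itself in the last. Circles use all 12 libraries and triangles leave out the isotype library at 1 µg/ml; filled symbols have an adjusted p under 0.05, and the IGKC slope within isotype is at 0.18 with that library and 0.02 without it.

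The authors' deposited tables give each antibody library against the 3 isotype libraries, and list all 9 genes in all 9 tables, 81 values in all. None of the 81 had an adjusted p under 0.05 in the authors' deposited tables, where 0% to 2.84% of genes with an adjusted p were called. Those shares were 0.195%, 2.84% and 2.58% at 0.01, 0.1 and 1 µg/ml of anti-LAG3, 1.45%, 0% and 0.443% for anti-PD1, and 0%, 0.199% and 1.73% for the combination, each from the authors' deposited table of that library. Of the 81, 5 had an unadjusted p under 0.05, and 2 adjusted p-values, both of BLNK, are given as missing. Those under 0.05 were CD79B with anti-LAG3 at 0.1 and 1 µg/ml, anti-PD1 at 0.01 µg/ml and the combination at 1 µg/ml, and BTK with anti-LAG3 at 0.01 µg/ml. The share of all genes at that unadjusted threshold was not computed, and all 81 values share the same 3 isotype libraries. The log2 values in the authors' deposited tables ran from -0.23 to 0.26, and the highest was CD79B with anti-PD1 at 0.01 µg/ml (adjusted p = 0.0681).

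Other genes of the pathway were read as a list of 59, of which 57 were tested and LILRB1 and CD300A fell under the filter. With anti-LAG3 against isotype, 1 of the 57 was called higher and 7 were called lower, where 10% of all genes were called and 4.88% were called higher. The median was -0.04 over the 57 and -0.00149 over all genes. LCK, a SRC family kinase better known in T cells and also on the list of Jurkat markers, rose by 0.27 ± 0.05 (adjusted p = 0.00264). Among inhibitors, the Fc receptor-like gene FCRL3 fell by 0.25, the lipid phosphatase gene INPP5D (SHIP-1) by 0.17 and the tyrosine phosphatase gene PTPN22 by 0.20. The adaptor CD2AP fell by 0.22 and the exchange factor RASGRP3 by 0.14. Downstream, the calcium channel gene ITPR3 fell by 0.20 and the paracaspase gene MALT1 by 0.17. Jurkat T markers had 5 of 25 called higher and 0 lower in this comparison, with a median of 0.23, and the part of the balance of the lines in the pathway values was not tested.

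With the combination against anti-LAG3, 8 of the 57 were called higher and 1 was called lower, where 5.75% of all genes were called and 2.61% were called higher. The median was 0.09 over the 57 and 0.00407 over all genes. FCRL3 rose by 0.27 ± 0.06 (adjusted p = 0.00971), PTPN22 by 0.23, MALT1 by 0.21 and the ubiquitin ligase gene CBL by 0.21. CD2AP rose by 0.20, INPP5D by 0.17, RASGRP3 by 0.16 and the SRC family kinase gene FYN by 0.16. LCK fell by 0.28 ± 0.05 (adjusted p = 0.0052). This comparison and the one of anti-LAG3 with isotype share the anti-LAG3 libraries. With anti-PD1 against isotype 1 of the 57 was called, CD2AP at -0.19 (adjusted p = 0.0405), where 3.82% of all genes were called. The combination gave 0 calls among the 57 against isotype and 0 against anti-PD1 by edgeR, where 0.00644% and 0.354% of all genes were called. At an unadjusted p under 0.05, 3 of the 57 were higher and 0 lower against isotype, where 6.68% of all genes passed. Against anti-PD1, 10 were higher and 5 lower at that threshold, where 14% of all genes passed.

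In the dose slope of the combination against isotype, 2 of the 57 rose and 3 fell, where 4.63% of all genes were called. NFATC1, a transcription factor activated by calcium, rose by 0.27 ± 0.06 per 10-fold dose (adjusted p = 0.0117), and PIK3CD, a catalytic subunit of phosphoinositide 3-kinase, by 0.16. LCK fell by 0.19, the lambda constant gene IGLC2 by 0.29 and the surrogate light chain gene IGLL1 by 0.35. Immunoglobulin lambda genes have near-identical copies, so IGLC2 and IGLL1 are uncertain. In the isotype libraries IGLC2 had 21.9, 22.3 and 29.2 CPM at 0.01, 0.1 and 1 µg/ml. The counts were 606, 599 and 1044, and the library at 1 µg/ml had the highest depth. Within isotype, 1 of the 57 was called, where 0.856% of all genes were called and 0.74% with a positive slope. VPREB3, a gene of the surrogate light chain complex, had a slope of 0.29 ± 0.07 (adjusted p = 0.0373). It had 10.2, 12.1 and 15.1 CPM (281, 326 and 542 counts) from the lowest to the highest dose. Without the isotype library at 1 µg/ml no gene was called in the isotype slope.

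Genes with the most similar profile were named by Pearson's r of log2 CPM over the 12 libraries, among 8769 genes averaging at least 10 CPM, as a description without a test. All values share the same libraries and their depth and base composition. CD79B was closest to RPL3 (r = 0.983), ATG101 (0.969) and OAZ1 (0.969), and CD79A to GAPDH (0.958). IGHM was closest to YBX3 (0.932) and CD27 (0.891), and IGKC to RAC2 (0.930). MS4A1 was closest to SLC25A32 (0.950) and to CD180 (0.949), CD22 to INPP5D (0.960), BTK to TANK (0.928), BLNK to MAP7D3 (0.907) and SYK to EEFSEC (0.804). The mean of the 9 was closest to WARS (0.910).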

How the data were processed

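RNA-seq of 12 libraries (4 arms, 3 doses) was analysed from the raw read counts per gene symbol that the authors deposited, with a gene length in base pairs. The submitters' processing notes name GRCh38, DESeq2, STAR 2.5.2b, Trimmomatic 0.36 and featureCounts (Subread 1.5.2), with order, annotation release and strand setting not given in the sources used here. PolyA RNA is the labelled molecule, whereas the series' design names total RNA. The authors also deposited log2 fold changes with standard errors and p-values for 9 libraries, each against the isotype libraries, per the file headers. Not used were 4 count columns that match no sample and 36 per-sample columns of those tables.

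Tests used R 4.3.3 and edgeR 4.0.16: filterByExpr by arm (minimum count 10), TMM scaling, and quasi-likelihood F tests of arm with dose as a factor (6 residual degrees of freedom) or of a slope on log10 dose per arm (4 residual degrees of freedom). The spread was estimated once over all 12 libraries. Benjamini-Hochberg adjustment ran over 15535 genes, and an adjusted p under 0.05 was called; every adjusted p in the text is from this test unless DESeq2 or the authors' table is named. RPKM is TMM-scaled CPM divided by the deposited length. Errors after ± are standard errors except where SD is given. Depth was 23593973 to 36581754 counts per library. GC content came from the longest GENCODE 29 transcript, found for 13686 of the 15535 genes (88.1%), and length was the deposited length. Both were corrected by loess with a span of 0.5, and genes without a GC content were left uncorrected. Scripts were tested on simulated counts. All 9 genes were named, and from the pathway list those with an adjusted p under 0.05, at most 10 per comparison; the rule for similar profiles took the highest r. The 9 genes and all lists were chosen with earlier results of these data known. Alternatives were RLE size factors, library totals, DESeq2 1.42.0, no filter, a marker covariate, scaling to Raji B markers, the GC and length correction, dose left out, slopes against 0, and leaving out each library.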

Additional observations from a re-analysis of the deposited data

How the results depend on the processing

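No paired analysis was possible because the labels give no replicate numbers, and dose is already a term of the model. Numbers of all 15535 genes called moved too and are given in brackets for part of the fits. For anti-LAG3 against isotype, 1 of the 9 genes was called (1560). The count was 2 with library totals, 2 scaled to Raji B markers (1937) and 3 with the GC and length correction (718). It was 0 with the marker covariate (0) and 0 to 1 when 1 library was left out. For anti-PD1 against isotype the count of 0 (594) became 1 with DESeq2 (634), without the filter and with the covariate (562), and 0 to 2 with 1 library left out. For the combination against anti-LAG3 the count of 2 (893) became 3 with the GC and length correction (421), 0 with the covariate (2) and 1 with dose left out. It was 0 to 4 with 1 library left out. The covariate was -1.15 to -1.05 in combination libraries and -0.985 to -0.932 in anti-LAG3 libraries, without overlap. It raised the standard error of BTK from 0.04 to 0.08, so this fit cannot separate marker balance from arm. The 0 of the anti-PD1 slope (41) became 1 with DESeq2 (58), without the filter and with the covariate (325), and 0 to 1 with 1 library left out. The 0 of the combination slope (719) became 1 with library totals, without the filter, with the covariate (784), scaled to Raji B markers (610) and against a slope of 0. It was 2 with the GC and length correction (1044), and 0 to 1 with 1 library left out. The 1 of the isotype slope (133) became 2 with DESeq2 (108), without the filter and with the covariate (469), and 0 to 2 with 1 library left out. The marker difference turned to -0.0468, -0.176 and -0.178 for anti-LAG3, anti-PD1 and the combination by the median over markers, and that of anti-PD1 ranged between -0.00194, without its library at 1 µg/ml, and 0.0722.

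Over the 27 gene results with an unadjusted p under 0.05, 536 alternative values were computed. Of these 463 kept direction and side of the threshold, mostly results not called in the main fit that stayed uncalled. Calls were lost in 30, all among results called in the main fit. CD79B in anti-LAG3 against isotype lost its call in 10 of 20 alternatives. In the combination against anti-LAG3, MS4A1 lost it in 11 of 20 and BTK in 8 of 20. The IGKC slope within isotype lost it in 1 of 19. A further 36 gained a call and 7 changed sign. The 7 were CD22 in anti-LAG3 against isotype with the covariate (0.0045), the slopes against 0 of IGKC in anti-LAG3 (0.0154) and in the combination (0.00725), the anti-PD1 slopes of CD79A without isotype at 1 µg/ml (0.000768; lowest -0.205 with 1 library left out) and of MS4A1 without anti-PD1 at 0.01 µg/ml (0.0258; lowest -0.254), and the isotype slopes without isotype at 1 µg/ml of IGHM (-0.00445; highest 0.242) and CD79A (-0.0309; highest 0.174). The cause was not tested. All genes called in anti-LAG3 against isotype numbered 1560, but 718 with the GC and length correction and 0 with the covariate. Values of the covariate did not overlap between these arms, so that fit cannot separate it from the arm. With 1 library per condition, dose responses unlike between arms add to the spread used in the arm tests.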
